A study of Arabidopsis thaliana with 35 samples.

Results

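The Aux/IAA genes of Arabidopsis thaliana described here are IAA18 (AT1G51950), IAA20 (AT2G46990), IAA29 (AT4G32280), IAA30 (AT3G62100), IAA31 (AT3G17600) and IAA34 (AT1G15050). They were chosen by name, with earlier results of these data known. Each of the 6 is represented by 1 probe set that the probe-to-gene annotation assigns to it alone, among 13355 genes tested. All samples are seedlings of the natural accession RRS-7, which spent their first 5 days at 20 °C in long days (16 h light, 8 h dark). On day 5, at ZT 7 (7 h after lights on), plates were moved to 28 °C or stayed at 20 °C. Hypocotyls, cotyledons and roots were then dissected either 3 h later, at ZT 10, or 24 h later, at ZT 7 of day 6. Each combination of organ, temperature and time, 12 in all, has 3 arrays, but the warm root at 3 h has only 2. Each replicate is a pool of material from several harvest sessions, so the p-values measure the spread between such pools.

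Aux/IAA proteins are short-lived nuclear repressors of auxin responses. They bind auxin response factors (ARFs) through a shared C-terminal domain and recruit TOPLESS-type corepressors through an N-terminal motif. Auxin joins the degron in their domain II to an F-box receptor of the TIR1/AFB family, and the repressor is then degraded. In seedlings the pathway takes part in hypocotyl elongation, cotyledon and leaf growth, vascular patterning and root branching, and auxin signalling is a known part of growth in warmth. IAA18 carries a degron, and mutations in it that stabilise the protein alter embryo patterning and lateral root formation. IAA29 also has a degron and is a known target of the PIF transcription factors that act in shade and warmth. IAA20 and IAA30 lack domain II and are known from vascular development, IAA31 has a poorly conserved domain II, and IAA34 lacks it.

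Values are log2 expression after RMA, the authors' normalisation, and differences are on that log2 scale with standard errors from limma's fit to all 35 arrays. A member passed at an adjusted p under 0.05 after Benjamini-Hochberg adjustment over all 13355 genes of that comparison. IAA18 had a mean of 7.15, and 75.1% of the genes tested had a lower mean. The other 5 members had means of 3.59 to 4.36, and only 18.2% (IAA31) to 34.4% (IAA29) of genes had a lower one. Probe sets differ in how brightly they bind, so no order of abundance between genes is read from this, and detection calls were not used here. At such low values a fold change can be compressed, and absence of a transcript cannot be told from a low level. The organ labels were compared with marker genes. EXPA7, a root-hair expansin, lay between 7.67 and 8.74 in the root and no higher than 5.05 in the other organs. LHCB4.2, LHCB4.3, RCA and PORB, which are genes of chloroplast proteins, were lower on every root array than on any hypocotyl or cotyledon array. PYK10, a root beta-glucosidase gene, was highest in the root (13.2 to 13.7) but also high in the hypocotyl (12.4 to 12.9) and the cotyledon (11.4 to 12.1). As whole organs were sampled, a smaller number of cells that express a gene and less RNA per cell cannot be told apart.

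**Figure D1:**
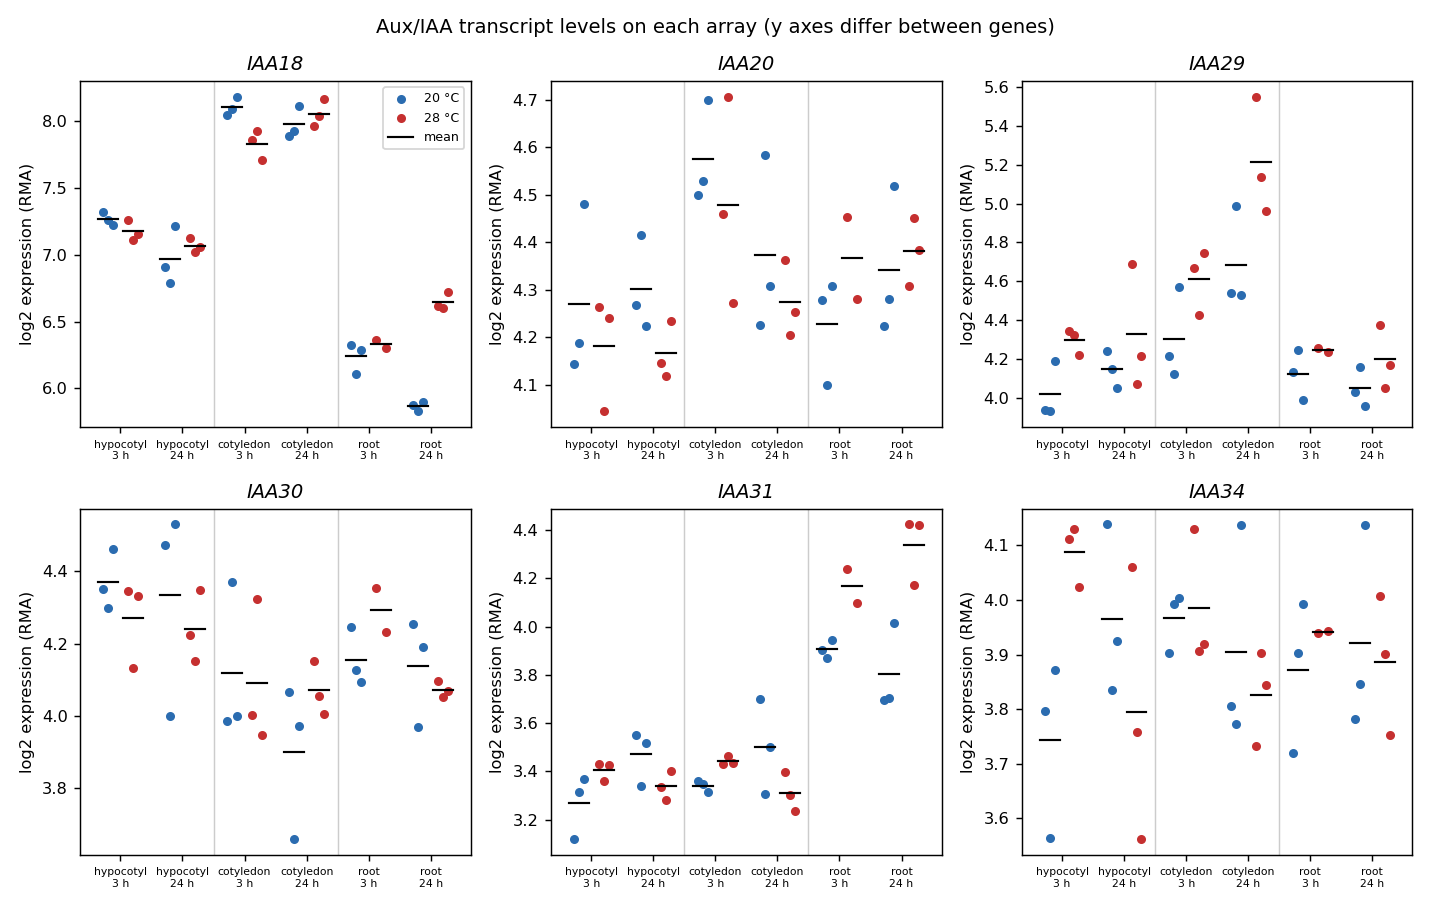
Log2 expression (RMA, y axis) of each of the 6 genes on every array, by organ and hours after the shift (x axis); blue points are arrays at 20 °C, red points arrays at 28 °C, and black bars group means, with a separate y axis for each gene. IAA18 forms 3 steps from cotyledon to hypocotyl to root and its 20 °C and 28 °C arrays part in the root at 24 h (means 5.87 and 6.65). The points of IAA20 and IAA30 overlap between temperatures in every organ and time.

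IAA18 was the member with the largest organ differences. At 20 °C, over both harvests, its lowest, median and highest values were 7.89, 8.07 and 8.18 on the 6 cotyledon arrays, 6.79, 7.22 and 7.32 on the 6 hypocotyl arrays, and 5.83, 6.00 and 6.33 on the 6 root arrays. The 3 organs did not overlap. The root level was 3.97-fold below that of the cotyledon (−1.99 ± 0.06, limma adjusted p = 3.77e-24) and 2.09-fold below that of the hypocotyl (−1.07 ± 0.06, adjusted p = 2.11e-16). The hypocotyl lay 1.90-fold below the cotyledon (−0.92 ± 0.06, adjusted p = 1.97e-14). Across all 12 groups the order was the 4 cotyledon groups, the 4 hypocotyl groups and the 4 root groups. Of the 11 pairs of neighbours in that order, 4 did not overlap: cotyledon at 28 °C after 3 h above hypocotyl at 20 °C after 3 h, hypocotyl at 20 °C after 24 h above root at 28 °C after 24 h, that root group above root at 28 °C after 3 h, and root at 20 °C after 3 h above root at 20 °C after 24 h. How often all genes tested separate in this way was not counted, so non-overlap of arrays is given here and below as description. The order of the 3 organs was kept under both other scalings of the arrays.

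Organ differences among the other members were smaller. In all, 4 of the 6 members differed between hypocotyl and cotyledon at 20 °C in limma's moderated test, 4 between root and cotyledon and 3 between root and hypocotyl. Among all genes tested, 66.3%, 76.5% and 60.4% differed in these comparisons, so differing between organs was common on these arrays. IAA31, in contrast to IAA18, was highest in the root. On the 6 root arrays at 20 °C its lowest, median and highest values were 3.70, 3.89 and 4.01, against 3.31, 3.35 and 3.70 in the cotyledon and 3.12, 3.35 and 3.55 in the hypocotyl. The root exceeded every hypocotyl array and all but 1 cotyledon array, with differences of 0.49 ± 0.07 and 0.43 ± 0.07 (limma adjusted p = 8.05e-08 and 5.60e-07). IAA29 was higher in the cotyledon than in the hypocotyl (hypocotyl minus cotyledon −0.41 ± 0.10) and than in the root (root minus cotyledon −0.41 ± 0.10), with limma adjusted p of 8.85e-04 and 7.12e-04. Its 20 °C arrays ran from 4.12 to 4.99 in the cotyledon, 3.93 to 4.24 in the hypocotyl and 3.96 to 4.25 in the root, and overlapped. IAA20 was lower in both hypocotyl and root than in the cotyledon, by −0.19 ± 0.08 each (adjusted p = 0.0322 and 0.0263). These calls were lost in 6 and 5 of the 12 fits that left out 1 compared array. IAA30 was higher in the hypocotyl than in the cotyledon (0.34 ± 0.09) and the root (root minus hypocotyl −0.21 ± 0.09), with limma adjusted p of 9.19e-04 and 0.0403 and overlapping arrays. The second of these was lost in 7 of 12 such fits and with arrays centred on their median. On the deposited scale IAA34 passed in none of the 3 organ comparisons, where its differences lay between −0.08 and 0.04.

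These organ values depend on how arrays are scaled. Centring arrays on 5 measured reference genes shifted the median of all genes by −0.53 in root minus cotyledon and by −0.44 in root minus hypocotyl. On that scale IAA31 was no longer higher in the root (−0.09 against the cotyledon and 0.04 against the hypocotyl), while the root level of IAA18 was lower still (−2.52 against the cotyledon). Root minus hypocotyl of IAA20 then passed at −0.45. Of 11 listed reference genes these 5 were measured, and whether they are themselves stable between organs was not tested. With warmth in the root after 24 h, 1 of them rose (EXPR, 0.22 ± 0.08) and 1 fell (UBC21, −0.26 ± 0.07), where 17.7% of all genes passed. Centring on the array median shifted all genes by −0.21 in hypocotyl minus cotyledon, where IAA30 then differed by 0.13 and did not pass, and IAA31 passed at −0.26. IAA34 gained calls in all 3 organ comparisons: hypocotyl minus cotyledon was −0.29 with median centring, root minus cotyledon −0.20 with median and −0.57 with reference centring, and root minus hypocotyl −0.40 with reference centring. The organ differences above are therefore relative to the bulk of the genes, whose medians were −0.06, −0.03 and 0.03 in hypocotyl minus cotyledon, root minus cotyledon and root minus hypocotyl.

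**Figure D2:**
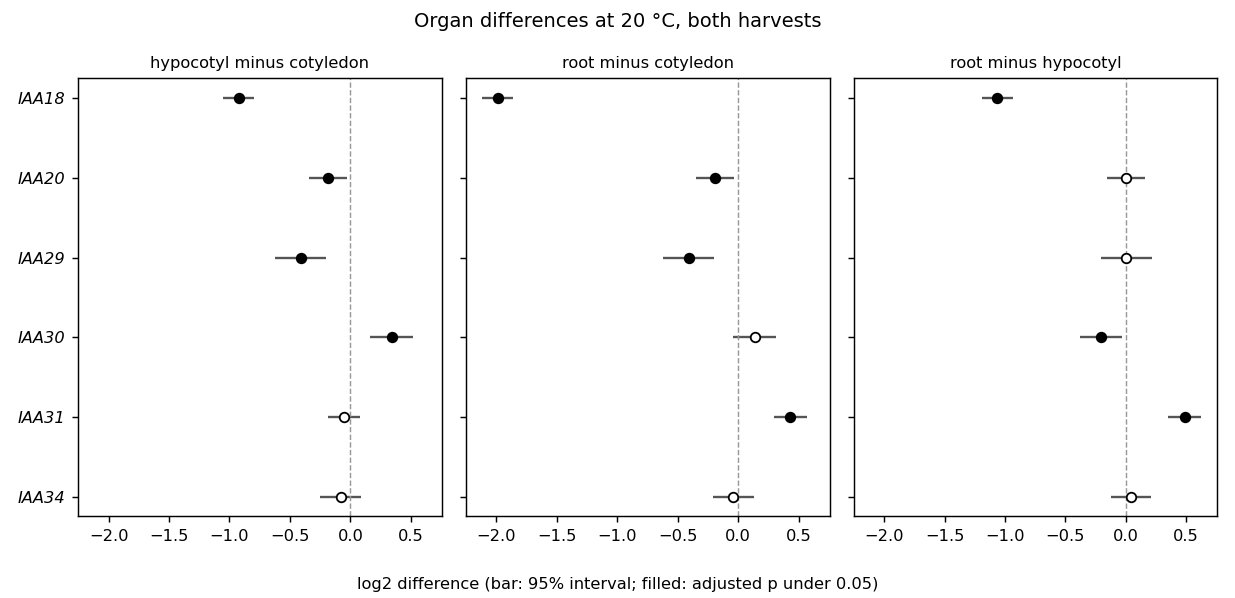
Log2 difference in level between organs at 20 °C (x axis), over both harvests, for each of the 6 genes (y axis); points are estimates from limma's fit, bars 95% intervals, and filled points passed at an adjusted p under 0.05. IAA18 lies farthest from 0, at −1.99 for root minus cotyledon, and IAA31 is higher in the root than in the other organs (0.43 and 0.49), a difference that was lost with arrays centred on reference genes.

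Which of these repressor genes respond to warmth was asked in each organ and time. Over the 36 tests of 28 °C against 20 °C, 5 passed, 4 of them higher and 1 lower at 28 °C, in 4 of the members. The root after 24 h had 2 of them, IAA18 and IAA31, both higher, where 17.7% of all genes passed (8.39% higher, 9.31% lower). In the hypocotyl after 3 h 1 member, IAA34, was higher, where 14.6% of all genes passed (6.99% higher, 7.65% lower). In the cotyledon after 3 h 1 member, IAA18, was lower, where 22.4% of all genes passed (10.3% higher, 12.1% lower). In the cotyledon after 24 h 1 member, IAA29, was higher, where 28.5% of all genes passed (15% higher, 13.4% lower). Read against these shares, the members passed about as often as genes in general. As they were chosen with earlier results of these data known, the shares serve as a reference and not as a test. In the hypocotyl after 24 h and the root after 3 h limma's test passed 0 members, and 0 and 1 of them had an unadjusted p under 0.05, where 9.67% (5.08% higher, 4.58% lower) and 10.7% (5.38% higher, 5.35% lower) of all genes passed. The median change of the 6 members lay between −0.11 and 0.13 over the 6 comparisons, and that of all genes between −0.02 and 0.03.

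**Figure D3:**
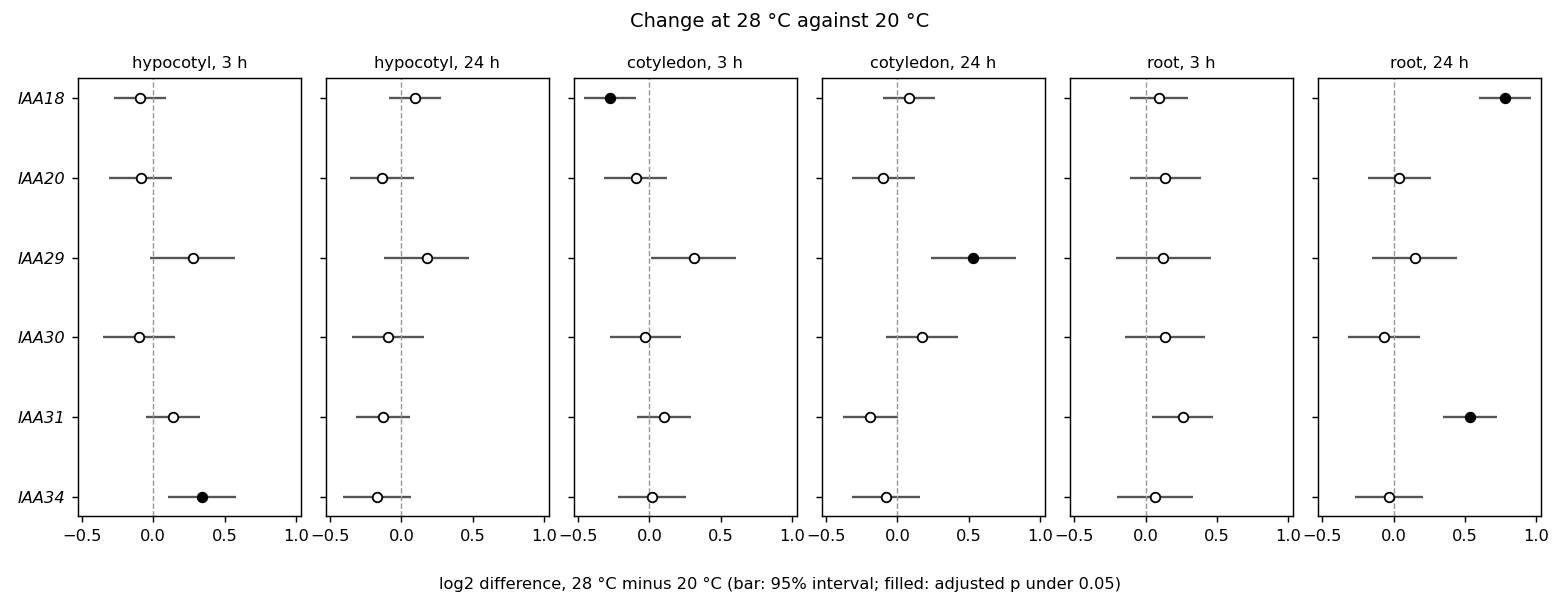
Log2 difference between 28 °C and 20 °C (x axis) for each of the 6 genes (y axis) in each organ and time; points are estimates from limma's fit, bars 95% intervals, and filled points passed at an adjusted p under 0.05. The values farthest from 0 are those of IAA18 (0.78) and IAA31 (0.53) in the root and of IAA29 (0.53) in the cotyledon, all after 24 h.

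IAA18 rose in the root after 24 h at 28 °C. Its 3 root arrays at 28 °C read 6.62, 6.60 and 6.72, and the 3 at 20 °C read 5.88, 5.83 and 5.90. All warm arrays lay above all control arrays, and the level was 1.72-fold higher (0.78 ± 0.09, 95% interval 0.60 to 0.96, limma adjusted p = 6.90e-08). After 3 h the root showed no such separation, with 6.36 and 6.30 at 28 °C against 6.33, 6.11 and 6.28 at 20 °C (0.09 ± 0.10, adjusted p = 0.706). The difference between these effects passed in its own test (24 h minus 3 h 0.69 ± 0.13, limma adjusted p = 0.0019), as did 3.35% of all genes. Both temperatures contributed to it: the mean at 20 °C was 6.24 at the first harvest and 5.87 at the second, while the mean at 28 °C was 6.33 and 6.65. The difference of −0.37 ± 0.09 between harvests at 20 °C had an adjusted p of 0.0522, although the arrays of the harvests did not overlap.

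The IAA18 rise also differed between organs. In the hypocotyl after 24 h its values were 7.12, 7.02 and 7.06 at 28 °C and 6.91, 6.79 and 7.22 at 20 °C, a change of 0.10 ± 0.09. In the cotyledon after 24 h they were 7.97, 8.04 and 8.17 at 28 °C and 7.89, 7.93 and 8.11 at 20 °C, a change of 0.08 ± 0.09. Neither passed, and the arrays of the temperatures overlapped in both organs. The effect in the root exceeded that in the cotyledon by 0.70 ± 0.13 (limma adjusted p = 1.02e-04) and that in the hypocotyl by 0.69 ± 0.13 (adjusted p = 4.54e-04). Even at 28 °C the root arrays stayed below every hypocotyl and cotyledon array.

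Some organ markers also moved in the warm root, where 8.39% of all genes rose after 24 h. After 24 h both measured root markers of 10 listed were higher at 28 °C, EXPA7 by 0.46 ± 0.15 (limma adjusted p = 0.0223) and PYK10 by 0.41 ± 0.09 (adjusted p = 0.00177), and their summed level was 13.6 to 13.7 at 28 °C against 13.2 to 13.3 at 20 °C on the log2 scale. Of 4 measured leaf markers 1 was higher, LHCB4.3 (0.50 ± 0.11, adjusted p = 9.10e-04), and their summed level was 8.67 to 8.69 against 8.06 to 8.64. CLV3, a shoot meristem gene and the 1 measured meristem marker, read 3.22 to 3.51 against 3.50 to 3.77 and did not pass. It was low in every organ (medians 3.53 in the root to 3.65 in the hypocotyl) and gives no reading of meristem content in the root. After 3 h in the root EXPA7 (0.59 ± 0.16) and LHCB4.2 (0.66 ± 0.16) were higher, where 5.38% of all genes rose. The part of these markers in the rises of IAA18 and IAA31 was not tested. Markers were also counted in the other comparisons where members passed. In the hypocotyl after 3 h 2 of 4 leaf and 0 of 2 root markers rose, where 6.99% of all genes rose. In the cotyledon after 3 h 1 leaf marker and PYK10 rose, where 10.3% of all genes rose. In the cotyledon after 24 h 1 leaf marker rose and 1 fell, where 15% of all genes rose and 13.4% fell.

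In the cotyledon after 3 h IAA18 was lower at 28 °C. The values were 7.86, 7.93 and 7.71 at 28 °C and 8.05, 8.09 and 8.18 at 20 °C, without overlap, and the change was −0.28 ± 0.09 (limma adjusted p = 0.0232). This call was lost without replicate 3 at 20 °C (−0.24, adjusted p = 0.102) or replicate 3 at 28 °C (−0.21, adjusted p = 0.138), when the fit held the compared groups alone (adjusted p = 0.0948) and with arrays centred on reference genes (−0.21, adjusted p = 0.0935). That replicate 3 at 28 °C carries another replicate number in its description than in its title. The later minus the earlier effect in the cotyledon was 0.36 ± 0.13 with an adjusted p of 0.0504.

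IAA31 rose in the root as well. After 24 h its arrays read 4.42, 4.17 and 4.42 at 28 °C and 3.70, 3.70 and 4.01 at 20 °C, without overlap. The level was 1.45-fold higher (0.53 ± 0.09, 95% interval 0.34 to 0.73, limma adjusted p = 7.46e-05). The 2 arrays at 28 °C after 3 h, at 4.24 and 4.10, were also above the 3 control arrays, at 3.90, 3.87 and 3.94, but the difference of 0.26 ± 0.10 did not pass (adjusted p = 0.117). Its effects at 24 h and 3 h could not be told apart in the root (0.27 ± 0.14, 95% interval −0.01 to 0.56). The cotyledon arrays after 3 h, at 3.43, 3.47 and 3.43 at 28 °C and 3.36, 3.35 and 3.32 at 20 °C, did not overlap either, with a difference of 0.10 ± 0.09 that did not pass. In the hypocotyl and the cotyledon after 24 h the differences for IAA31 were −0.13 ± 0.09 and −0.19 ± 0.09, and neither passed. The root effect exceeded that of the cotyledon by 0.72 ± 0.13 (limma adjusted p = 1.22e-04) and that of the hypocotyl by 0.66 ± 0.13 (adjusted p = 0.00111). Among all genes, 20.1% passed for root minus cotyledon and 7.48% for root minus hypocotyl at 24 h, against 2 of the 6 members in each, IAA18 and IAA31. Besides these and the times in the root, where IAA18 passed, limma passed 0 of the 6 members in each remaining difference between temperature effects. The shares of all genes that passed were 3.35% and 12.1% for hypocotyl minus cotyledon at 3 h and 24 h, 11.5% for root minus cotyledon and 5.3% for root minus hypocotyl at 3 h, and 0.659% and 16.4% for 24 h minus 3 h in the hypocotyl and the cotyledon. At an unadjusted p under 0.05, 1 member passed for root minus cotyledon at 3 h, 1 for the times in the hypocotyl and 2 for those in the cotyledon, and 0 in the other 3 of these 6.

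**Figure D4:**
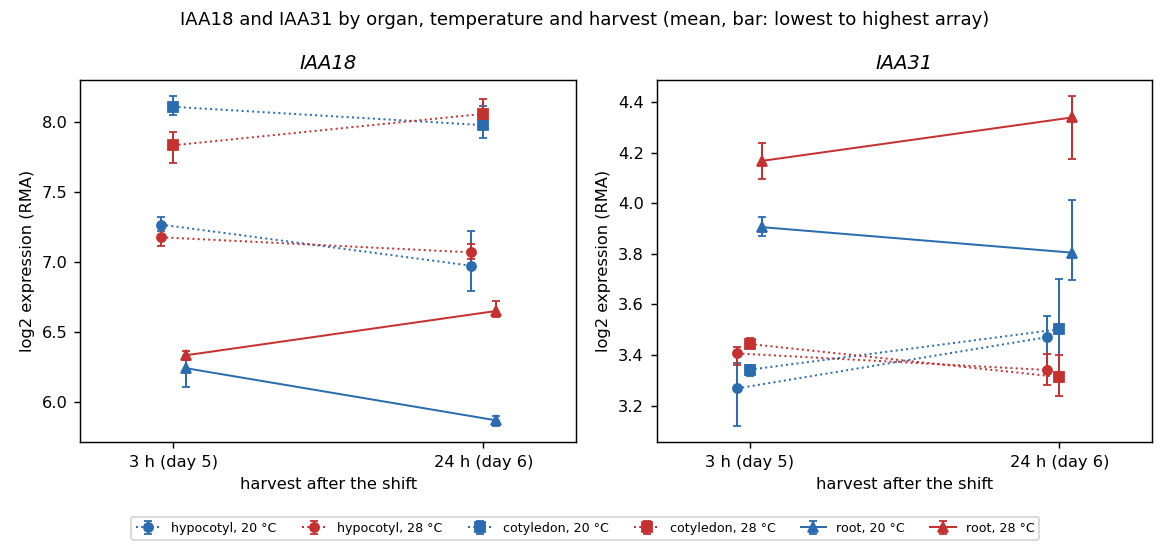
Log2 expression (RMA, y axis) of IAA18 (left) and IAA31 (right) at the harvests 3 h and 24 h after the shift (x axis); symbols are group means by organ, bars run from the lowest to the highest array, colours are temperatures, and solid lines are the root. In the root the 20 °C and 28 °C means of IAA18 are 6.24 and 6.33 at 3 h and 5.87 and 6.65 at 24 h, and those of IAA31 are 3.91 and 4.17, then 3.80 and 4.34.

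IAA29 rose in the cotyledon after 24 h at 28 °C, where its arrays read 5.55, 5.14 and 4.96 against 4.54, 4.99 and 4.53 at 20 °C. The highest control array lay just above the lowest warm array. The change was 0.53 ± 0.15, or 1.44-fold (95% interval 0.23 to 0.83, limma adjusted p = 0.00557), and without replicate 1 at 28 °C it was 0.36 and did not pass (adjusted p = 0.0762). In the cotyledon after 3 h the values were 4.67, 4.43 and 4.74 at 28 °C and 4.22, 4.12 and 4.57 at 20 °C (0.31 ± 0.15, adjusted p = 0.139). In the hypocotyl after 3 h they were 4.35, 4.33 and 4.22 against 3.94, 3.93 and 4.19, without overlap, yet the change of 0.28 ± 0.15 did not pass (adjusted p = 0.222). The estimates for IAA29 were above 0 in all 6 comparisons, from 0.13 to 0.53, of which 1 passed. No difference of its effect between organs or times passed: at 24 h hypocotyl minus cotyledon was −0.35 ± 0.21 and root minus cotyledon −0.38 ± 0.21. Its highest group mean was that of the cotyledon at 28 °C after 24 h (5.22 ± 0.30, SD, n = 3) and its lowest that of the hypocotyl at 20 °C after 3 h (4.02 ± 0.15, SD, n = 3), and neighbours in the order overlapped in all 11 pairs.

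IAA34 passed in the hypocotyl after 3 h. The warm arrays read 4.11, 4.13 and 4.02 and the controls 3.80, 3.56 and 3.87, a difference of 0.34 ± 0.12 without overlap (limma adjusted p = 0.0431). That call remained in only 1 of the 6 fits that left out 1 compared array, with changes of 0.25 to 0.41, and was lost with arrays centred on their median (adjusted p = 0.0597). After 24 h the hypocotyl arrays overlapped, at 4.06, 3.76 and 3.56 against 4.14, 3.83 and 3.93 (−0.17 ± 0.12). The difference between these effects was −0.52 ± 0.17 with an adjusted p of 0.125. In the cotyledon and the root its differences were −0.08 to 0.07. Its 12 group means spanned 3.74 to 4.09, with overlap between all 11 pairs of neighbours.

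IAA20 and IAA30 passed in none of the 6 temperature comparisons. Over all 35 arrays IAA20 ranged from 4.04 to 4.71 and IAA30 from 3.66 to 4.53. Estimates lay between −0.14 and 0.14 for IAA20 and between −0.10 and 0.17 for IAA30. The 95% intervals of the 6 comparisons ran from −0.36 to 0.39 for IAA20 and from −0.35 to 0.42 for IAA30. IAA20 had its highest group mean in the cotyledon at 20 °C after 3 h (4.58 ± 0.11, SD, n = 3) and its lowest in the hypocotyl at 28 °C after 24 h (4.17 ± 0.06, SD, n = 3). For IAA30 the highest was the hypocotyl at 20 °C after 3 h (4.37 ± 0.08, SD, n = 3) and the lowest the cotyledon at 20 °C after 24 h (3.90 ± 0.21, SD, n = 3). For both genes neighbours in the order of the 12 groups overlapped in all 11 pairs. Among IAA20, IAA30 and IAA34, the standard deviation of the 12 group means (0.12, 0.14 and 0.09) was below the pooled standard deviation within groups (0.14, 0.16 and 0.15), whereas for IAA18 it was 0.76 against 0.10. A mean of 3 arrays varies less than a single array, so this does not show that the groups are alike. IAA20 and IAA30 did pass in organ comparisons at 20 °C.

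Without warming, the harvests of day 5 and day 6 differed in 0 of 18 tests of the members in limma's moderated test, and 4 had an unadjusted p under 0.05. Of all genes, 1.94% passed in the hypocotyl, 17.6% in the cotyledon and 0.419% in the root. IAA18 was lower at the later harvest by 0.29 ± 0.09 in the hypocotyl (24 h minus 3 h −0.29, adjusted p = 0.0856), and IAA29 was 0.38 ± 0.15 higher in the cotyledon (adjusted p = 0.0704). The 2 harvests differ both in seedling age and in the hour of the day, ZT 10 and ZT 7, which cannot be told apart here.

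Other genes of the auxin pathway came from 9 lists, of which 16 of 115 genes outside the members were measured by a named probe set, and the rest were not analysed here. No TIR1/AFB receptor, ARF, TOPLESS-type corepressor, auxin carrier or warm-signalling gene of the lists was among them. Of 23 other listed Aux/IAA genes only 1, IAA33 (AT5G57420), had a named probe set, so most of the family is not described here. IAA33 had differences of −0.28 to 0.30 and passed in none of the 6 temperature comparisons. Of 14 listed genes of auxin synthesis 4 were measured, YUC2, YUC4, YUC6 and YUC11, YUCCA genes that encode enzymes of this pathway. Of these 4, 0 passed in any organ or time, with changes of −0.23 to 0.27 and list medians of 0.00 to 0.18. Between 9.67% and 28.5% of all genes passed in the 6 comparisons. The other listed synthesis genes had no probe set that names them alone in the annotation used, so the response of the whole list is not known here.

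Of the 8 measured genes of auxin inactivation, 3 rose and 0 fell in the hypocotyl after 3 h, where 6.99% of all genes rose and 7.65% fell. The median change over the list was 0.27 against 0.03 over all genes. After 3 h in the cotyledon 5 rose and 0 fell (median 0.45 against 0.01 over all genes), where 10.3% of all genes rose and 12.1% fell. Among the 5 were the glucosyltransferase gene IAGLU at 1.23 ± 0.14 and the auxin-conjugating GH3.17 at 0.77 ± 0.14. GH3.5, another gene of auxin conjugation, rose by 1.11 ± 0.19 in the hypocotyl after 24 h. It was the only 1 of the 8 to pass there, where 9.67% of all genes passed. After 24 h in the cotyledon 3 rose and 1 fell, GH3.9 (−0.60 ± 0.13), where 15% of all genes rose and 13.4% fell. In the root 1 fell after 3 h, where 5.35% of all genes fell. After 24 h in the root, where IAA18 and IAA31 rose, 1 of the 8 rose, GH3.5 (0.55 ± 0.19, list median −0.01 as over all genes). With it rose 1 of 3 measured early auxin targets, the lateral root regulator LBD29 (0.43 ± 0.12), where 8.39% of all genes rose. No test compared these few genes with the shares of all genes. SAUR10, a gene of the early auxin-induced SAUR family, rose in the hypocotyl after 3 h (0.44 ± 0.11) and 24 h (0.45 ± 0.11) and in the cotyledon after 3 h (0.72 ± 0.11). LBD16, another lateral root regulator, fell in the cotyledon after 24 h (−0.44 ± 0.16).

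Patterns across the 12 group means were compared with Pearson's r as a description. All genes were read on the same arrays, and organ differences dominate the pattern of IAA18. In IAA20, IAA30 and IAA34 the group means spread less (SD 0.12, 0.14 and 0.09) than arrays within groups (0.14, 0.16 and 0.15). The genes named as most like a member had the highest r among all genes tested. How high r reaches by such a search alone was not tested. Between IAA18 and IAA31 r was −0.69, and between IAA18 and IAA29 it was 0.69. IAA20 and IAA30 had an r of −0.41. Among other genes tested, the 3 patterns most like that of IAA18 were those of AT1G60010, AT5G42670 and AT3G46110 (each r = 0.98). IAA31 was most like GRX480 (r = 0.99), a glutaredoxin gene, AT1G72125 and AT1G70500 (each r = 0.98). IAA29 was most like TRY, a regulator of trichome patterning, AT5G05430 and AT3G24460 (r = 0.96 each). The closest to IAA20 were AT3G43130, AT4G23960 and AT2G07320 (0.90 to 0.94), to IAA30 AT5G15570, AT5G24970 and NRPE7 (0.90 to 0.94), and to IAA34 AT2G29780, AT3G28170 and AT4G04110 (0.86 to 0.90).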

How the data were processed

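Biotinylated cRNA from total RNA was hybridised to 35 Affymetrix arrays. The values are the authors' deposited log2 expression values for 22746 probe sets; per the submitters' processing notes, RMA and limma were used, with no version given; the set of arrays normalised jointly is not given in the sources used here. Of the probe sets, 13513 name 1 gene, 503 name several and 8730 are unlisted in the probe annotation used. For 147 genes with several probe sets the one with the highest mean was used. Symbols came from RefSeq (TAIR10.1), which matched 13285 of 13355 genes. A model with 12 group means was fitted in limma 3.58.1 (R 4.3.3; lmFit, contrasts.fit and default eBayes, leaving 23 residual degrees of freedom) and 21 comparisons were tested, two-sided, with Benjamini-Hochberg adjustment over all genes within each. The procedure was tried on simulated data for the 6 temperature comparisons only, with noise drawn independently for each gene. The organ, harvest and difference comparisons were not simulated. Array medians were 5.65 to 5.93 and replicates correlated at 0.992 to 0.997. Precision is limited by the number of arrays, with a median standard error over genes of 0.105 for a temperature change, or 0.117 for root at 3 h.

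The members and lists were chosen with earlier results of these data known. Named were all members, up to 4 genes of each auxin list with the largest temperature change among those that passed, and the 3 genes most like each member; IAA33 and the YUCCA genes were named outside this rule, after their values were seen. Same-numbered replicates of the temperatures did not deviate together (3 of 17 pairs correlated above 0.1), so no pairing was used. Cotyledon replicate 3 at 28 °C after 3 h has another number in its description, and the title was followed. Alternatives were the compared arrays alone, trend and robust eBayes, a replicate block, dim genes left out, 2 other scalings, the mean of probe sets, all probe sets, and each compared array left out. Sequences were not used here.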

Additional observations from a re-analysis of the deposited data

Results flagged for a closer look

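In all, 5 differences between temperature effects passed in limma's moderated test, all of them with a larger effect in the root after 24 h. For IAA18 the temperature effect at 24 h was larger in the root than in the cotyledon by 0.70 ± 0.13 and than in the hypocotyl by 0.69 ± 0.13, and within the root it was larger after 24 h than after 3 h by 0.69 ± 0.13. For IAA31 the effect at 24 h was larger in the root than in the cotyledon by 0.72 ± 0.13 and than in the hypocotyl by 0.66 ± 0.13. The IAA18 calls remained when any 1 compared array was left out and under all 8 other alternatives, and so did those of IAA31, apart from the alternative without dim genes, which leaves IAA31 out. In the group of root arrays at 28 °C after 3 h only 2 arrays were available, which touches only the comparison of times. Groups of 3 or fewer arrays were too small to look for single outlying arrays.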

How the results depend on the processing

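The 2 root rises after 24 h (IAA18 0.74 to 0.83, IAA31 0.48 to 0.64) passed in every alternative that tested them. Of the counts of members called, with the compared arrays alone 0 passed in the cotyledon at 3 h in place of 1. For the harvests of the root at 20 °C, 1 member (IAA18) passed in place of 0 with trend and robust eBayes, the replicate block, dim genes left out, reference centring and all probe sets. For the later minus the earlier effect in the cotyledon, 1 (IAA18) passed in place of 0 with the replicate block, dim genes left out, the mean of probe sets and all probe sets. The replicate block also gave 1 in place of 0 for root minus cotyledon at 3 h (IAA18, 0.39); only 12 of 34 arrays correlated best with their own number. Without dim genes, which leaves out IAA31, 1 member in place of 2 passed in the root at 24 h, and 1 in place of 2 for the root effect against either other organ. Centring on array medians gave 0 in the hypocotyl at 3 h and 2 in the cotyledon at 24 h (IAA31 at −0.26 besides IAA29). Centring on reference genes gave 0 in the cotyledon at 3 h and 5 in place of 3 for root minus hypocotyl. It also turned signs: root minus cotyledon became −0.39 for IAA30 and −0.094 for IAA31, and root minus hypocotyl −0.44 for IAA29 and −0.40 for IAA34. With 1 array left out, counts ranged from 0 to 1 for the hypocotyl and the cotyledon at 3 h, the harvests of each organ and the later minus the earlier effect in the cotyledon, and from 0 to 2 for the cotyledon at 24 h. Leaving out 1 array at 28 °C after 3 h left the root with a lone array, assumed to vary like the others. Among 1164 such values of single members 26 lost and 11 gained a call, and among 987 values under the other alternatives 7 lost and 19 gained one. Signal limits the members other than IAA18, whose values are low.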
